A study of Mus musculus with 10 samples.

Results

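The genes described here are markers of the liver and of the adrenal gland, organs that lie close to the embryonic kidney when it is dissected. Afp, Alb, Apoa1, Apoa2 and Ttr stand for the liver, and Star, Cyp11a1, Cyp21a1, Nr5a1 and Mc2r for the adrenal cortex. These 10 genes were chosen by symbol, as genes of those organs, from the 35663 entries of an RNA-seq table of whole mouse kidneys of E13.5 embryos, and all 10 symbols were found. The table held 10 libraries of the C57/b6 strain: 4 from wild-type kidneys, 3 from Foxd1GC control kidneys and 3 from Ntn1SPKO kidneys. The Foxd1GC allele makes Cre recombinase in stromal progenitors, the cells that give rise to the stroma of the kidney. Per the paper, Foxd1GC also goes with the loss of a Foxd1 allele, in which both groups that carry it differ from wild-type kidneys. Control kidneys carried Foxd1GC and were not Ntn1 knockouts, and their title, Cre control, does not say whether they carried a floxed Ntn1 allele. Ntn1SPKO kidneys carried Foxd1GC together with Ntn1flox/flox. In them Ntn1, which encodes the secreted guidance cue netrin 1, was deleted in the Foxd1+ lineage. The comparison of these groups asks what the loss of stromal Ntn1 does to the kidney, and the wild-type libraries add a group without the Cre allele. The labels do not tie a library to an embryo, litter or dissection, so p-values measure the spread between these libraries, which may be technical.

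Hepatocytes of the embryonic liver secrete most of the proteins of the plasma, and in mid-gestation the same organ is the main site at which red blood cells form. Cells of the adrenal cortex make steroid hormones from cholesterol, which Star carries into mitochondria and the enzymes Cyp11a1 and Cyp21a1 convert in turn, under the transcription factor Nr5a1 and the corticotropin receptor Mc2r. Star, Cyp11a1 and Nr5a1 are also genes of the gonad, which develops beside the kidney as well. Bulk libraries of whole kidneys do not show which cells a transcript came from.

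Values are FPKM (fragments per kilobase of transcript per M fragments, where M is 1e6), which allows levels of different genes to be compared per length. The smallest steps between low values gave each library a scaling number of 26.4 to 31.7 M reads, with which a value could be turned back into a number of reads. The deposited values were already on a common scale across libraries, so that this number need not be the depth of a library. Genes of the kidney itself set the scale: 12 markers of nephron progenitors, stroma and ureteric bud summed to 506 to 667 FPKM in the 10 libraries, and all 12 were above 0. Transcripts of the Y-linked genes Ddx3y, Eif2s3y, Kdm5d and Uty summed to 88.6 to 98.1 FPKM in all 3 Ntn1SPKO libraries, Foxd1GC control replicate 2 and wild-type replicate 3, and to 0.210 to 1.02 FPKM in the other 5 libraries. Embryo sex therefore went with the group in the comparison of Ntn1SPKO with controls, apart from Foxd1GC control replicate 2, and its part in the results was not tested.

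All 5 liver markers were detected in all 10 libraries, but at low levels. Afp, the plasma protein of the fetal liver, had the highest mean at 6.38 FPKM, followed by Alb, the carrier protein albumin, at 3.84 FPKM. Apoa2 and Apoa1, proteins of high-density lipoprotein, had means of 2.76 and 1.05 FPKM, and Ttr, which carries thyroid hormone and retinol-binding protein, had 0.344 FPKM. Of the 23752 entries above 0 in at least 1 library, 39.9% had a higher mean than Afp and 64.6% a higher mean than Ttr. Between the lowest and the highest library the level of Afp differed 11.0-fold, that of Alb 12.4-fold and that of Ttr 21.3-fold, whereas Apoa2 differed 4.26-fold.

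In wild-type replicates 1 to 4, Afp was at 9.51, 2.92, 7.17 and 2.91 FPKM. Foxd1GC control replicates 1 to 3 had 15.1, 5.09 and 12.5 FPKM of Afp, and Ntn1SPKO replicates 1 to 3 had 1.43, 1.38 and 5.85 FPKM. These values rested on 74 to 798 reads per library, so that counting error was small beside the spread between libraries. Ntn1SPKO replicate 3 lay above Foxd1GC control replicate 2, and the groups overlapped. Foxd1GC control replicates 1 and 3 and wild-type replicate 1 formed the top of the order, and Ntn1SPKO replicates 1 and 2 the bottom.

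Alb had nearly the same order. It was at 6.20, 1.69, 3.27 and 2.26 FPKM in the wild-type libraries, 8.74, 3.65 and 6.73 FPKM in Foxd1GC control libraries and 0.703, 0.925 and 4.27 FPKM in Ntn1SPKO libraries, from 37 to 455 reads. Its 3 highest libraries were the 3 highest of Afp, and Ntn1SPKO replicates 1 and 2 were again the lowest. The range of each group reached into that of the next.

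**Figure D1:**
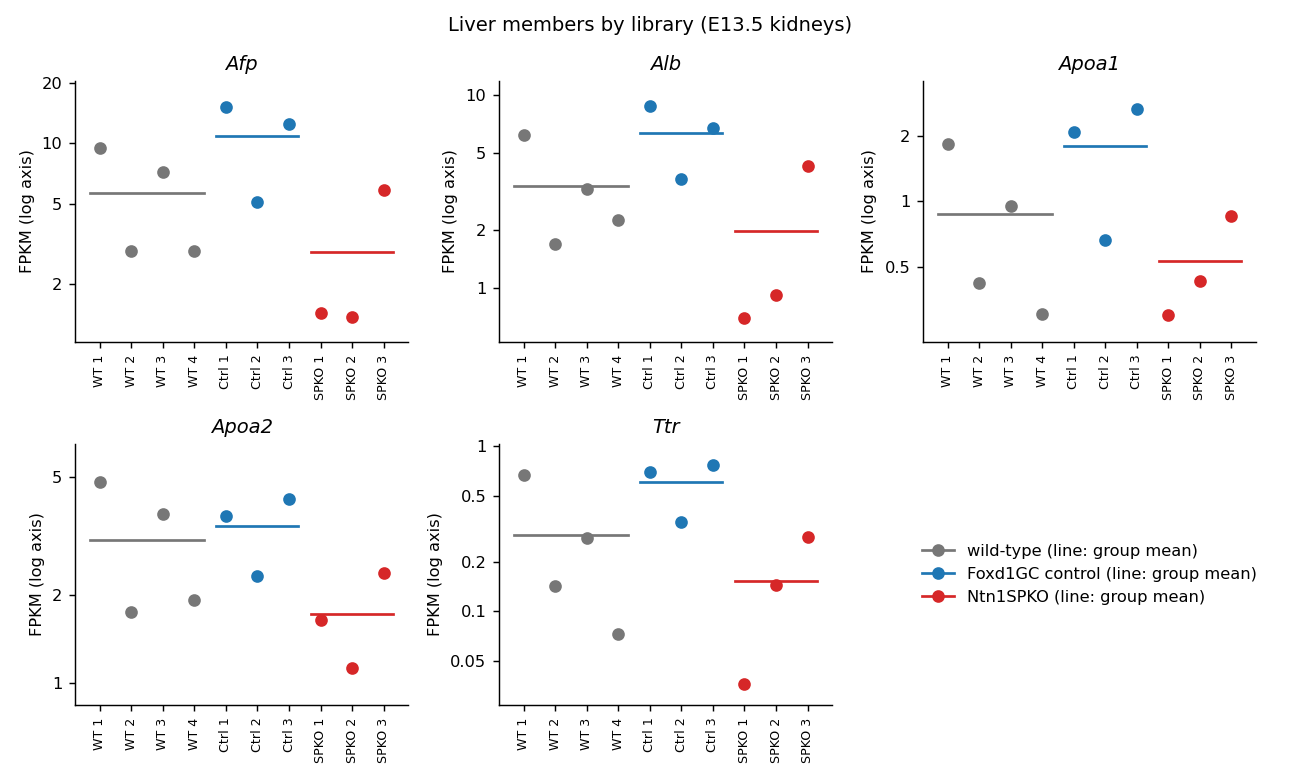
Level of each liver marker in FPKM, on a log axis that differs between panels, in the 10 libraries (WT, wild-type; Ctrl, Foxd1GC control; SPKO, Ntn1SPKO). Points are libraries and lines are group means; for Afp, Ntn1SPKO replicates 1 and 2 sit at 1.43 and 1.38 FPKM, and Foxd1GC control replicates 1 and 3 at 15.1 and 12.5 FPKM.

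Alb and Afp are neighbours of 1 gene family and lie head to tail on the + strand of chromosome 5 of GRCm38. Alb (ENSMUSG00000029368.10) spans chr5:90460897-90476602 and Afp (ENSMUSG00000054932.6) chr5:90490737-90508907 in the GENCODE annotation, with 14134 bases between them. The 250 bases before the RefSeq start of each gene are printed because these are the liver markers with the highest levels and the most similar pattern. The Alb stretch is chr5:90460620-90460869 and the Afp stretch chr5:90490464-90490713, both on the + strand of GRCm38.p6, and the RefSeq starts lie 27 and 23 bases before the GENCODE ones. Capitals mark GTTAAT, part of the motif bound by hepatocyte nuclear factor 1, and in Afp also TATAAA, the TATA box.
Alb: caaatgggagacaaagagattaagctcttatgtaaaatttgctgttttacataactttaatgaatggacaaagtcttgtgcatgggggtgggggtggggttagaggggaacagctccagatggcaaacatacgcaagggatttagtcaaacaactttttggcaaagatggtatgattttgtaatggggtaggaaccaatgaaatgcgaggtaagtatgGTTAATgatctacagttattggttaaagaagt
Afp: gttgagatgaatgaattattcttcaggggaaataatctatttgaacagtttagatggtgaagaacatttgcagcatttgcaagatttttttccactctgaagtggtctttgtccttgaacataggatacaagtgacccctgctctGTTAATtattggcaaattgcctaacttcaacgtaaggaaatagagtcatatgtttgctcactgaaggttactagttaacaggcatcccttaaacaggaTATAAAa

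GTTAAT began 32 bases before the RefSeq start of Alb and 105 bases before that of Afp. Searched on both strands, these letters were in 7.10% of 32851 RefSeq windows of 300 bases (250 before and 50 after a start), and TATAAA in 13.6%. RefSeq windows of 5 of the 10 genes were searched, and GTTAAT was found in those of 2, Alb and Afp. AAGGTCA, the motif bound by Nr5a1, was in 4.72% of all windows, in 1 of the windows of the liver gene Apoa2 and in neither of the 2 windows of Cyp11a1. Such matches describe letters and show neither binding nor a cause of the levels.

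Apoa1 (ENSMUSG00000032083.8, chr9:46228580-46230466, + strand) was at 1.83, 0.422, 0.949 and 0.306 FPKM in wild-type libraries, 2.09, 0.667 and 2.65 FPKM in Foxd1GC control libraries and 0.302, 0.429 and 0.860 FPKM in Ntn1SPKO libraries. Apoa2 (ENSMUSG00000005681.12, chr1:171225054-171226379, + strand) was at 4.81, 1.75, 3.74 and 1.91 FPKM, then 3.69, 2.32 and 4.23 FPKM, then 1.64, 1.13 and 2.37 FPKM in the same order. Foxd1GC control replicates 1 and 3 and wild-type replicate 1 were again the 3 highest for Apoa1, and for Apoa2 wild-type replicate 1 was the highest. Apoa1 came from 7 to 55 reads and Apoa2, a short transcript, from 8 to 37, so that their lowest values are the least certain. For both genes the groups overlapped.

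Ttr (ENSMUSG00000061808.4, chr18:20665280-20674321, + strand) was the lowest of the liver markers. Its values of 0.673, 0.142, 0.277 and 0.0733 FPKM in wild-type libraries came from 20, 4, 8 and 2 reads. Foxd1GC control libraries were at 0.695, 0.350 and 0.769 FPKM, from 19, 10 and 19 reads, and Ntn1SPKO libraries at 0.0362, 0.144 and 0.280 FPKM, from 1, 4 and 7 reads. All 3 Ntn1SPKO libraries lay below all 3 controls. Among the 14550 genes that averaged 0.5 FPKM or more over these 6 libraries, which Ttr did not, 8.91% were lower without overlap. The exact 95% Poisson interval of the nearest pair, 10 reads (4.80 to 18.4) in Foxd1GC control replicate 2 and 7 reads (2.81 to 14.4) in Ntn1SPKO replicate 3, overlapped, and such intervals cover counting error only.

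Between Ntn1SPKO and Foxd1GC control kidneys, Afp had a mean of 2.88 ± 2.57 FPKM (SD, n=3) against 10.9 ± 5.18 FPKM (n=3). The difference of the mean log2(FPKM + 0.1) was −2.07 (standard error 0.65), with an unadjusted p of 0.0178 and an adjusted p of 0.447 by limma with Benjamini-Hochberg adjustment, and an exact two-sided permutation p of 0.2. With 3 libraries against 3, the exact test cannot give a p below 0.1. For Alb (1.97 ± 2.00 against 6.37 ± 2.56 FPKM) the log2 difference was −1.99 (standard error 0.68, limma p=0.0245, exact permutation p=0.2). The corresponding values were −1.50 (standard error 0.58, limma p=0.0390) for Apoa1 and −0.97 (standard error 0.33, limma p=0.0245) for Apoa2, both with an exact permutation p of 0.2. The limma adjusted p of Alb, Apoa1 and Apoa2 was 0.447 as well. Ttr had a log2 difference of −1.54 and an exact permutation p of 0.1, but with a mean under 0.5 FPKM it did not enter the limma test. In bulk tissue, fewer cells of a type and less RNA per cell cannot be told apart.

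None of the 5 markers that were tested, the 4 liver genes and Mc2r, was called, which needed an adjusted p under 0.1 and a difference of 2-fold or more and was met by 0.055% of 14550 genes. All 4 liver genes had an unadjusted p under 0.05 and were lower, where 5.17% of all genes tested were lower at that limit. This count rested on single libraries. It was 4 of 4 without Foxd1GC control replicate 2 or Ntn1SPKO replicate 3, and 0 of 4 without Foxd1GC control replicate 1, Foxd1GC control replicate 3, Ntn1SPKO replicate 1 or Ntn1SPKO replicate 2. The log2 difference of Afp stayed between −2.73 and −1.72 when each library was left out in turn, and that of Alb between −2.75 and −1.53.

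For the liver genes, the mean of wild-type kidneys lay between those of the other groups. For Ntn1SPKO against wild-type, the log2 difference was −1.08 (standard error 0.62) for Afp and −1.01 (standard error 0.65) for Alb, each with a limma adjusted p of 0.947. The differences of Apoa1 (−0.46), Apoa2 (−0.73) and Ttr (−0.51) were smaller. The exact permutation p of these 5 genes was 0.2 to 0.514, where 0.0286 is the lowest that 3 against 4 libraries can give. Of the 14432 genes tested, 0.0485% were called, and none of the markers was among them.

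The same libraries, set against wild-type, put the Foxd1GC controls on the other side. Afp was 1.93-fold, Alb 1.90-fold and Apoa1 2.06-fold as high in mean FPKM in controls as in wild-type kidneys, with log2 differences of 0.99 (standard error 0.53), 0.98 (standard error 0.46) and 1.04 (standard error 0.65). Their limma adjusted p was 0.665 for Afp and Alb and 0.670 for Apoa1. The log2 difference was 0.24 for Apoa2, and 1.03 for Ttr, which was not tested by limma. No marker was called among 14594 genes (0.00685% called), and none had an unadjusted p under 0.05, but without wild-type replicate 1 or without Foxd1GC control replicate 2 the limma p of Afp, Alb and Apoa1 fell below 0.05. The comparisons share libraries and are not independent of each other.

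**Figure D2:**
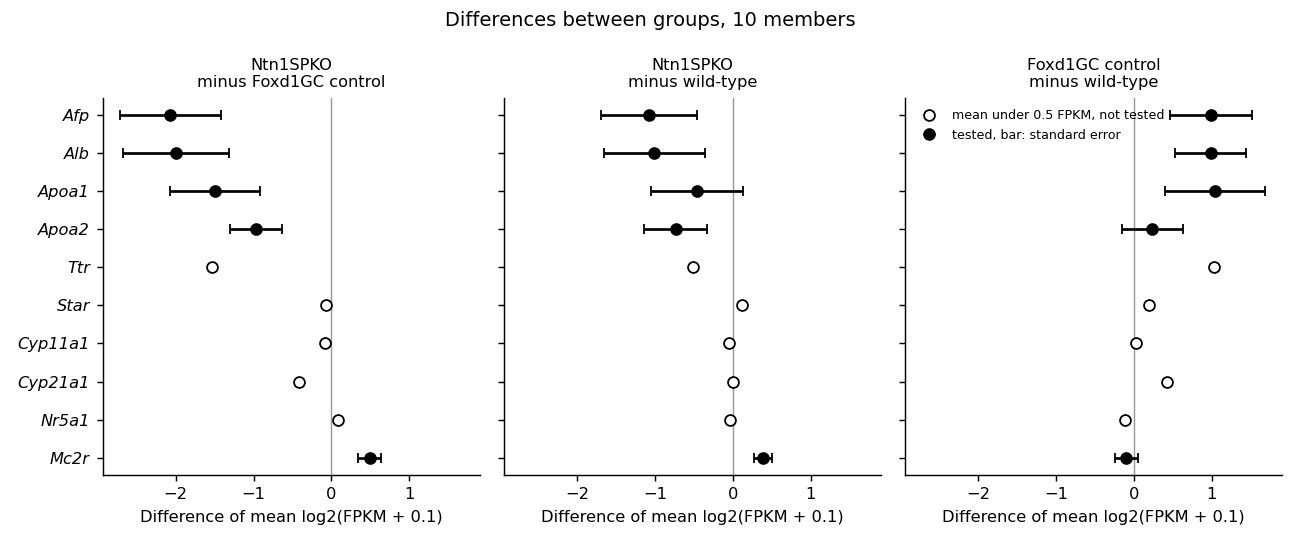
Differences between group means on the log2(FPKM + 0.1) scale for the 10 markers in the 3 comparisons. Filled points with bars are genes tested by limma with their standard errors, and open points are genes with a mean under 0.5 FPKM; the liver genes lie at −2.07 to −0.97 for Ntn1SPKO minus Foxd1GC control, and Mc2r is at 0.49.

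The liver markers moved together from library to library. Over the 10 libraries, the Pearson correlation of log2(FPKM + 0.1) between any 2 of the 5 was 0.84 to 0.98 (median 0.91), and Spearman's rho was 0.78 to 0.95. All 10 pairs had a permutation p, adjusted over the 45 pairs of the 10 genes, of 0.000450 to 0.0176 for r and of at most 0.0450 for rho. Afp and Alb were the closest pair (r=0.98, rho=0.94). Without the 2 libraries farthest from the median, r was 0.82 to 0.97, and after the group means were subtracted it was 0.82 to 0.96, so that the correlation was present within groups as well. The genes share libraries and depth in these correlations.

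The proportions of the liver markers varied less than their levels. The ratio of Afp to Alb was 1.29 to 2.19 (median 1.63), and the SD of its log2 was 0.25, against 1.19 for the log2 level of Afp. The SD of the log2 ratio of Ttr to Apoa1 was 0.26, against 0.94 for the log2 level of Ttr. Apoa2 was the exception, since its ratio to Alb ranged from 0.423 to 2.33 with an SD of 0.67 on the log2 scale, as large as the SD of 0.66 of its level. That ratio was highest in Ntn1SPKO replicate 1, the library with the lowest Alb.

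**Figure D3:**
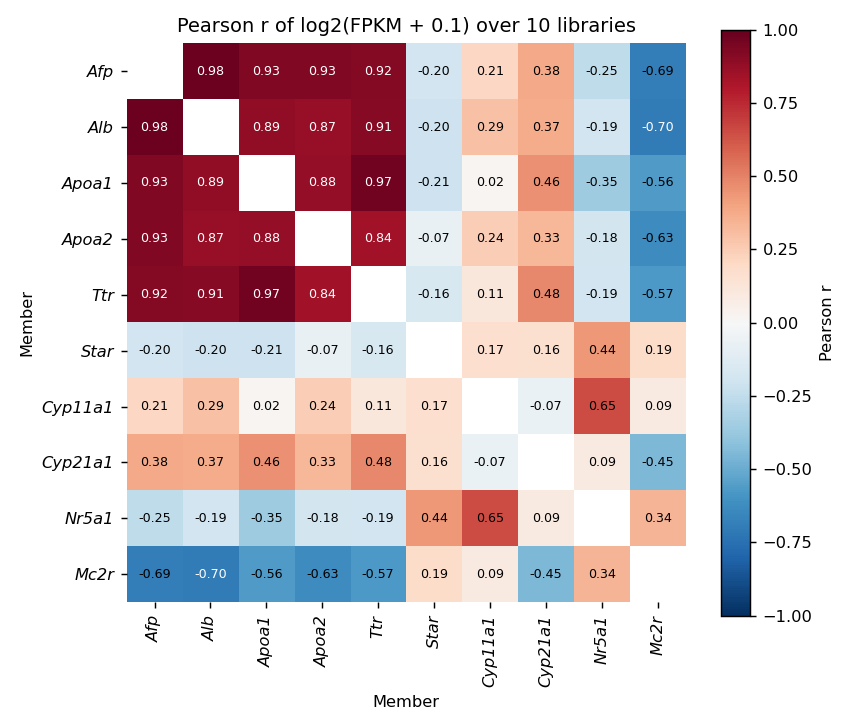
Pearson correlation between the log2(FPKM + 0.1) levels of each pair of the 10 markers over the 10 libraries, with the value in each cell. The block of the 5 liver genes holds values of 0.84 to 0.98, and no such block is seen among the 5 adrenal genes.

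The adrenal markers, other than Mc2r, were near the limit of detection. Star had a mean of 0.236 FPKM, Cyp11a1 of 0.188 FPKM, Nr5a1 of 0.0812 FPKM and Cyp21a1 of 0.0112 FPKM, none of which reached the mean of 0.5 FPKM needed for the limma test. In all 10 libraries together, these values stood for 267, 104, 65 and 6 reads. Mc2r, at a mean of 2.36 FPKM and 960 reads, was above all of them.

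Star (ENSMUSG00000031574.8, chr8:25806555-25815982, + strand) was at 0.183, 0.0524, 0.389 and 0.253 FPKM in wild-type, 0.135, 0.492 and 0.170 FPKM in Foxd1GC control and 0.284, 0.284 and 0.119 FPKM in Ntn1SPKO libraries. Cyp11a1 (ENSMUSG00000032323.13, chr9:58006411-58027023, + strand) was at 0.286, 0.124, 0.139 and 0.174 FPKM, then 0.147, 0.368 and 0.0887 FPKM, then 0.189, 0.0541 and 0.315 FPKM. Foxd1GC control replicate 2 was the highest library for both genes, with 57 and 21 reads, and the other libraries overlapped. Of the 31-base words of Cyp11a1, 3.21% also occur in the overlapping gene Gm17322, whose reads may be split with it.

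Nr5a1 (ENSMUSG00000026751.14, chr2:38692656-38714542, − strand) was highest in Foxd1GC control replicate 2 as well. It was at 0.0935, 0.0860, 0.0842 and 0.0636 FPKM in wild-type, 0.0127, 0.194 and 0.0422 FPKM in Foxd1GC control and 0.0754, 0.0625 and 0.0974 FPKM in Ntn1SPKO libraries. These were 8, 7, 7 and 5 reads, then 1, 16 and 3 reads, then 6, 5 and 7 reads. The interval of the 16 reads (9.15 to 26.0) lay above those of the 1 read (0.0253 to 5.57) and the 3 reads (0.619 to 8.77) in the other Foxd1GC control libraries, but overlapped those of the wild-type and Ntn1SPKO libraries. Nr5a1 overlaps the antisense gene Nr5a1os, and whether the reads were counted by strand is not given in the sources used here.

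Cyp21a1 (ENSMUSG00000024365.9, chr17:34801348-34804561, − strand) was listed at 0 in 8 libraries. It was at 0.0362 FPKM in Foxd1GC control replicate 2 and at 0.0755 FPKM in Foxd1GC control replicate 3, which is about 2 and 4 reads. With 3 reads taken as the limit for a count of 0 (the exact 95% Poisson interval ends at 3.69 reads), 0.0523 to 0.0622 FPKM was possible in these 8 libraries, so that no difference was detectable at this depth. It shares 36.9% of its 31-base words with other genes, mostly with the pseudogene Cyp21a2-ps, and reads may be split between them.

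For the 4 low adrenal genes the log2 differences between Ntn1SPKO and Foxd1GC control kidneys were −0.07 (Star), −0.08 (Cyp11a1), −0.42 (Cyp21a1) and 0.08 (Nr5a1), and their exact permutation p was 0.4 to 0.9. Against wild-type kidneys the values for Ntn1SPKO were 0.12, −0.05, 0 and −0.03, with exact permutation p of 0.714 to 1. For Foxd1GC control against wild-type kidneys they were 0.19, 0.02, 0.42 and −0.11, with exact permutation p of 0.143 to 0.914.

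**Figure D4:**
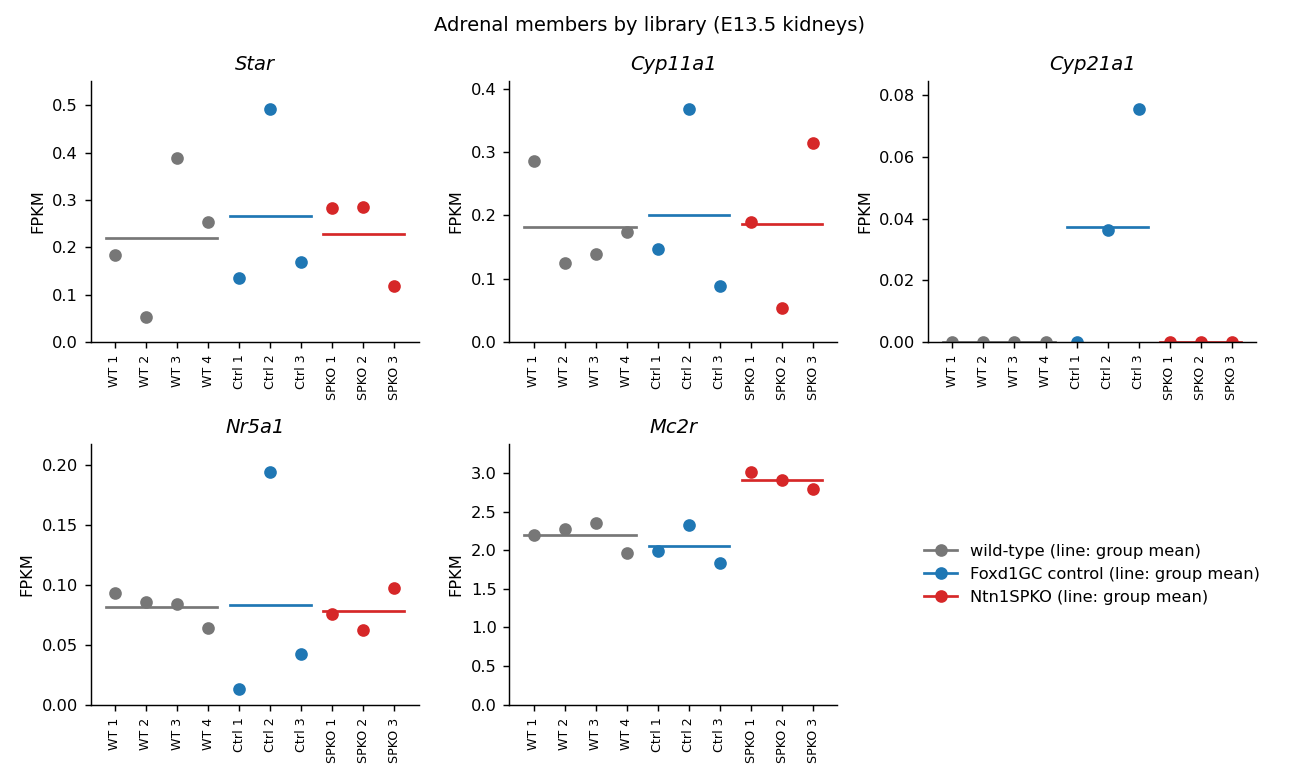
Level of each adrenal marker in FPKM, on linear axes that start at 0 and differ between panels, in the 10 libraries (WT, wild-type; Ctrl, Foxd1GC control; SPKO, Ntn1SPKO). Points are libraries and lines are group means; Foxd1GC control replicate 2 is the highest library for Star, Cyp11a1 and Nr5a1, and Mc2r lies between 1.84 and 3.02 FPKM throughout.

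Mc2r, the receptor for corticotropin, did not follow the other adrenal genes. Mc2r (ENSMUSG00000045569.7, chr18:68406907-68429320, − strand) was at 2.19, 2.28, 2.35 and 1.96 FPKM in wild-type, 1.98, 2.32 and 1.84 FPKM in Foxd1GC control and 3.02, 2.90 and 2.80 FPKM in Ntn1SPKO libraries. All 3 Ntn1SPKO libraries were above the other 7. The highest library was 1.64-fold above the lowest, the smallest such ratio of the 9 markers above 0 in every library, where Star differed 9.40-fold and Cyp11a1 6.81-fold. The ratio of Mc2r to Star accordingly ran from 4.72 to 43.5. Mc2r had no overlapping gene and shared none of its 31-base words with another gene.

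The mean of Mc2r was 2.91 ± 0.109 FPKM (SD, n=3) in Ntn1SPKO, 2.05 ± 0.250 FPKM (n=3) in Foxd1GC control kidneys, and wild-type kidneys had 2.20 ± 0.168 FPKM (n=4). Ntn1SPKO minus Foxd1GC control was 0.49 on the log2 scale (standard error 0.15, limma p=0.0137, adjusted p=0.447, exact permutation p=0.1). At an unadjusted p under 0.05, 5.49% of all genes tested were higher in this comparison, and for 11% the Ntn1SPKO libraries all lay above the controls. Without Ntn1SPKO replicate 1, the limma p of Mc2r was 0.0507 at a log2 difference of 0.46, and the difference was 0.42 to 0.58 when each library was left out in turn. Ntn1SPKO minus wild-type was 0.39 (standard error 0.11, limma p=0.00862, adjusted p=0.529), and the exact permutation p of 0.0286 was the lowest that this design allows. In that comparison 2.45% of genes were higher at an unadjusted p under 0.05, and 3.56% did not overlap with the Ntn1SPKO libraries higher. Foxd1GC control minus wild-type was −0.10 (standard error 0.15, limma adjusted p=0.840). The difference was under 2-fold in each comparison and passed no adjusted limit.

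Counting error bears on Mc2r as well. The nearest libraries of the first comparison were Ntn1SPKO replicate 3, with 103 reads (84.1 to 125), and Foxd1GC control replicate 2, with 98 reads (79.6 to 119), while Ntn1SPKO replicate 1 had 123 reads (102 to 147) and Foxd1GC control replicate 3 had 67 (51.9 to 85.1). Among libraries with Y-linked transcripts, Mc2r was at 2.32 FPKM in Foxd1GC control replicate 2 and 2.35 FPKM in wild-type replicate 3, and at 2.80 to 3.02 FPKM in the 3 Ntn1SPKO libraries. Afp in the same 5 libraries was at 5.09 and 7.17 FPKM in the former and at 1.38 to 5.85 FPKM in the latter. Foxd1GC control replicate 2 and wild-type replicate 3 were the only such libraries of their groups. These values therefore cannot separate embryo sex from genotype, and the part of sex was not tested.

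The adrenal markers had no shared pattern. Pearson r over the 10 libraries was −0.45 to 0.65 for the 10 pairs (median 0.17), Spearman's rho was −0.39 to 0.71, and no pair had an adjusted permutation p under 0.05 (lowest 0.128 for r). The highest was that of Cyp11a1 with Nr5a1 (r=0.65, rho=0.71), which was 0.53 without the 2 farthest libraries. The 25 pairs of a liver and an adrenal gene had r of −0.70 to 0.48 (median −0.18), and again none passed (lowest adjusted permutation p=0.102). The 5 pairs of Mc2r with a liver gene held the most negative values, −0.70 to −0.56, and their median of −0.63 became −0.28 without the 2 farthest libraries and −0.29 after group means were subtracted.

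Other genes of the same organs were then read in the same fits. Of 24 further hepatocyte genes, 23 were in the table and above 0 in at least 1 library. Their 4 highest were Apoc1, an apolipoprotein (mean 7.89 FPKM), Trf, the iron carrier transferrin (5.76 FPKM), Apom, another apolipoprotein (1.98 FPKM), and Itih2, a carrier of hyaluronan in plasma (1.43 FPKM). Of these, at least Trf and Apoc1 are also made by cells other than hepatocytes, and which cells the transcripts of Apom and Itih2 came from was not tested. Foxd1GC control replicate 1 was the highest library for 12 of the 23, Foxd1GC control replicate 3 for 5 and wild-type replicate 1 for 3, the same 3 libraries as for the liver markers.

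Between Ntn1SPKO and Foxd1GC control kidneys, 9 of the 23 hepatocyte genes could be tested and all 9 were lower, with a median log2 difference of −1.14 beside 0.01 for all genes tested. Of these, Ahsg, Ambp, Serpina1b and Serpina6 averaged 0.382, 0.314, 0.237 and 0.388 FPKM in Ntn1SPKO kidneys. They passed the filter only through the controls, so that a lower direction was favoured in advance. Among the genes of this list that were not tested, Fabp1 (0.81), Apoc3 (0.47) and Apoh (0.25) had a higher mean log2 level in Ntn1SPKO, and the others a lower one. None of the 9 was called. An unadjusted p under 0.05 was reached by 6, among them Ambp, Serpina1b and Serpina6, where 5.17% of all genes were lower at that limit. For 5 the groups did not overlap, where 8.91% of all genes were lower without overlap. Itih2 was at 0.733 against 2.08 FPKM (log2 difference −1.27, limma p=0.0125), and Apom at 1.60 against 2.24 FPKM (−0.44, limma p=0.0479), both with an adjusted p of 0.447 and an exact permutation p of 0.1. Apoc1 (−0.34) and Trf (−0.42) had a limma p of 0.231 and 0.221. Against wild-type, 6 of 6 tested genes were lower in Ntn1SPKO kidneys with a median of −0.35, and 9 of 10 were higher in Foxd1GC control than in wild-type kidneys with a median of 0.50. Ambp passed the filter only through wild-type kidneys in the former, and Ahsg and Serpina1b only through the controls in the latter.

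Blood and muscle genes also differed between libraries. Of 14 erythroid genes, 12 were in the table and above 0 in every library, led by the globins Hba-a1, Hbb-y, Hbb-bs and Hbb-bt, and they summed to 4784 to 10823 FPKM in wild-type, 7964 to 18142 FPKM in Foxd1GC control and 4909 to 18673 FPKM in Ntn1SPKO libraries. All 12 were lower in Ntn1SPKO than in Foxd1GC control kidneys (median −0.72), none with an unadjusted p under 0.05, and all 12 were higher in Foxd1GC control than in wild-type kidneys (median 1.02), 11 of them at an unadjusted p under 0.05, where 3.84% of all genes were. Against wild-type kidneys, all 12 were higher in Ntn1SPKO (median 0.28), none with an unadjusted p under 0.05, whereas the 4 liver genes tested were lower there (median −0.87). None was called. The order of the libraries was near that of the liver genes but not the same. From the highest to the lowest library for liver genes, the places for erythroid genes were 1, 3, 6, 4, 2, 5, 7, 10, 8 and 9. The widest gaps were those of wild-type replicate 1, in place 3 for liver and place 6 for erythroid genes, and Ntn1SPKO replicate 3, in places 5 and 2. The part of blood in the levels of the liver genes was not tested.

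The 14 muscle genes, among them Mylpf and Actc1 of the contractile apparatus, summed to 1045 FPKM in Foxd1GC control replicate 3, which was the highest library for all 14, and to 60.0 to 250.5 FPKM in the other 9. That library was also the highest for the mean log2 level of the liver and erythroid genes. All 11 muscle genes tested were lower in Ntn1SPKO than in Foxd1GC control kidneys (median −2.45), and 5 of them had an unadjusted p under 0.05, where 5.17% of all genes were lower at that limit. Of these 11, Myod1 and Chrna1 averaged 0.302 and 0.0990 FPKM in Ntn1SPKO kidneys and passed the filter only through the controls. Against wild-type kidneys, 9 of 10 were lower in Ntn1SPKO (median −1.84), and Des was higher (0.21). Of the 9, 7 had an unadjusted p under 0.05 (3.31% of all genes) and 6 did not overlap between the groups (3.54%). Myod1, among both the 7 and the 6, passed the filter here only through wild-type kidneys. No muscle gene was called in either comparison. Of 12 kidney genes, Foxd1GC control replicate 3 was the lowest library for 6 and the highest for 2. The 6 were Ret, Gata3 and Calb1 of the ureteric bud (4.09, 9.10 and 16.4 FPKM) and Pax2, Sall1 and Hoxd11, and the 2 were the nephron progenitor genes Six2 (96.4 FPKM) and Cited1 (70.1 FPKM), all named after their values were seen. The part of muscle in the results was not tested.

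**Figure D5:**
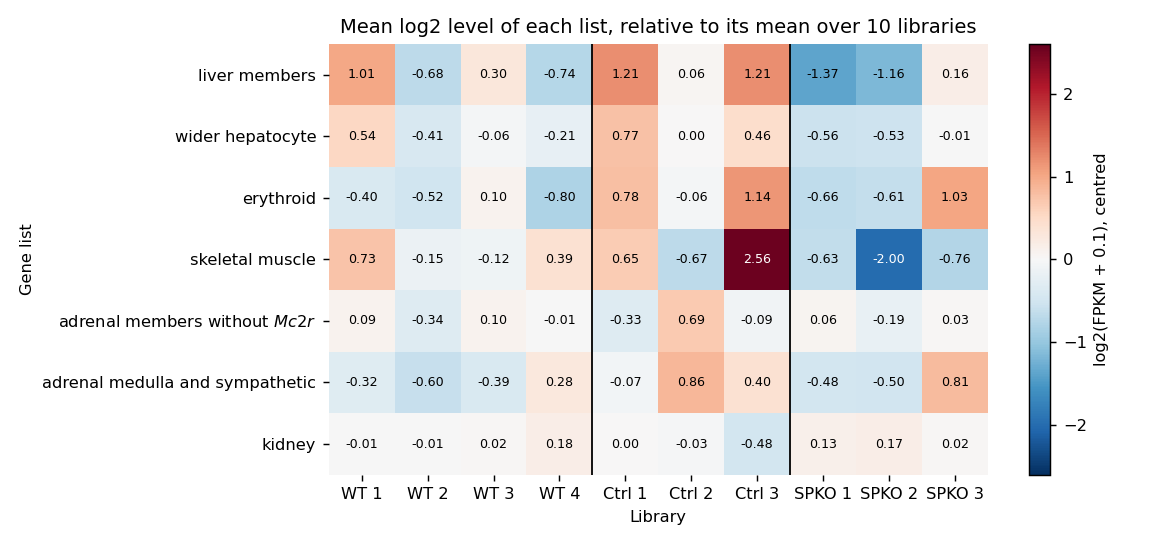
Mean log2(FPKM + 0.1) of 7 gene lists in each library (WT, wild-type; Ctrl, Foxd1GC control; SPKO, Ntn1SPKO), relative to the mean of the list over the 10 libraries. The liver markers are at 1.21 in Foxd1GC control replicates 1 and 3 and at −1.37 and −1.16 in Ntn1SPKO replicates 1 and 2, and the adrenal markers without Mc2r are at 0.69 in Foxd1GC control replicate 2.

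Further genes of the adrenal cortex differed widely in level. Of 15, the 4 highest were Cited2, a transcriptional regulator (mean 44.1 FPKM), Soat1, which esterifies cholesterol (40.6 FPKM), Scarb1, a lipoprotein receptor (17.1 FPKM), and Fdx1, the electron donor of mitochondrial steroid enzymes (14.8 to 24.0 FPKM), all of them used by many cell types. Cyp17a1 was above 0 in 1 library, Cyp11b2 in 2, Mrap, the partner protein of Mc2r, in 3 and Cyp11b1 in 6, each at no more than 0.0450 FPKM. The steroid enzyme Hsd3b1 was above 0 in 9 libraries, at up to 0.349 FPKM, and the nuclear receptor Nr0b1 in 10, at up to 0.486 FPKM. Akr1b7, an aldo-keto reductase, was at 0.661 to 6.54 FPKM (mean 3.79 FPKM). The remaining 4, Fdxr, Inha, Inhba and Sult1e1, were above 0 in all 10 libraries, with a highest value of 1.24 to 4.56 FPKM. Of the 8 genes tested between Ntn1SPKO and Foxd1GC control kidneys, 4 were lower and 4 higher, with a median of −0.01. Against wild-type kidneys, 3 of 8 were lower in Ntn1SPKO (median 0.03), with Akr1b7 (−0.81) and Inhba (−0.76) at an unadjusted p under 0.05 (3.31% of all genes). In Foxd1GC control against wild-type kidneys, 5 of 9 were lower (median −0.01), with Akr1b7 (−1.49) at that limit (3.23%). Sult1e1, among the 5, passed the filter only through wild-type kidneys. None was called.

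Markers of the adrenal medulla and sympathetic neurons had their highest mean log2 levels in Foxd1GC control replicate 2 and Ntn1SPKO replicate 3. These lay 0.86 and 0.81 above the mean of the list over the 10 libraries. Of the 13 genes of this list, all above 0, 6 were highest in Foxd1GC control replicate 2, among them Th, the enzyme that begins catecholamine synthesis (0.560 FPKM), named after its values were seen. That library was also the highest for Star, Cyp11a1 and Nr5a1. Ntn1SPKO replicate 3 was the highest library for 4, including Dbh, another enzyme of the catecholamine pathway (4.62 FPKM). Star was at 0.119 FPKM there, the second lowest value, whereas Cyp11a1 (0.315 FPKM, 16 reads) and Nr5a1 (0.0974 FPKM, 7 reads) had their second highest values. The list summed to 37.1 to 45.2 FPKM in wild-type, 15.6 to 44.3 FPKM in Foxd1GC control and 38.7 to 56.4 FPKM in Ntn1SPKO libraries, most of it from Gata3, which the ureteric bud also expresses. Its part in the adrenal levels was not tested.

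The genes whose pattern was most like that of the markers were ranked among 14534 genes whose mean reached 0.5 FPKM, by Pearson r over the 10 libraries with the mean log2 level of the list. For the 5 liver genes these were Rab4a, Serpina1b, Gpc5, Pax1, Olfml1, Dnm3, Serpina6, Mrc1, Fbxo27 and Bcl11a, with r from 0.95 to 0.90. Serpina1b (r=0.94) and Serpina6 (r=0.91), which encode plasma proteins of the serpin family, were also on the list of further hepatocyte genes. The other genes of that list with a mean of 0.5 FPKM stood lower. Ambp was in place 53 (r=0.83), Rbp4 in 667, Trf in 1829, Itih2 in 2355, Apoc1 in 2444 and Apom in 3404 (r=0.35). For the 5 adrenal genes they were Isy1, Gpr160, Tpi1, Rab33b, Gm12669, Dlst, Esm1, Armc5, Ints6l and Lrrc70, with r from 0.92 to 0.83, and none was on a list of adrenal genes. With group means subtracted, 3 of each 10 were again among the first 10. These are the highest of many correlations over 10 libraries and are a description.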

How the data were processed

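RNA of whole E13.5 kidneys was sequenced by the authors. The deposited values are FPKM of 10 libraries, 1 column each. Per the study's methods, the authors used Salmon with an index of Ensembl GRCm38 coding sequences, then tximport and DESeq2. The submitters' processing notes also name bcl2fastq 2.17.1.14 and mm10. In the deposited FPKM, however, low values of genes with 1 transcript gave whole reads (within 0.05, up to 10 reads) for 99.5% to 99.7% of genes when whole transcripts less 250 bases were used as length, and read numbers given here rest on that. The scaling number from these steps was 26.4 to 31.7 M reads (M is 1e6) per library. Over the 16550 genes above 0 in all libraries, the median ratio to the geometric mean was 1.00 in every library. The deposited FPKM were thus already scaled between libraries, and the scaling number need not equal total reads. Exact Poisson intervals cover counting error only.

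FPKM were used as deposited. The test was limma 3.58.1 in R 4.3.3 (eBayes, intensity trend) on log2(FPKM + 0.1) of the 2 groups compared, for genes whose mean there reached 0.5 FPKM, and p-values were adjusted by Benjamini and Hochberg. The fold on this scale understates the change of low genes. A gene under 0.5 FPKM in 1 group could pass the filter through the other group, and for such genes the direction was favoured in advance. A call needed an adjusted p under 0.1 and a difference of 2-fold or more. Single genes were also tested with an exact permutation test (two-sided), and correlations with 100000 permutations. On simulated data with the same spread for every gene, the fit recovered most of the changes that had been set. This does not show that it would do so for genes with a wider spread. Replicate numbers did not pair the libraries (correlation of deviations −0.05 to 0.08), so the block is an alternative only. The settings varied were the pseudocount (1 or 0.01), the filter (none or 1 FPKM), the scaling (equal totals, quantiles or TMM), eBayes (no trend or robust), the fit (all 10 libraries, or the block) and the libraries (each left out in turn).

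Members and gene lists were chosen with earlier results of these data known. Named were all members, the 4 highest genes of each list discussed, and the 10 genes most like each organ's members. Coordinates are of GRCm38 (GENCODE M21), and promoter windows of RefSeq (GRCm38.p6). Ahsp, Klf1 and Tf were not matched by symbol and were not analysed here, and values of a few other list genes are not reported here.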

Additional observations from a re-analysis of the deposited data

How the results depend on the processing

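No marker was called under any alternative run, and every log2 difference of a marker that was fitted again kept its direction. Over these alternatives the log2 difference between Ntn1SPKO and Foxd1GC control kidneys was −2.73 to −1.69 for Afp (limma adjusted p 0.150 to 0.742), −2.75 to −1.45 for Alb, −2.06 to −0.81 for Apoa1, −1.22 to −0.70 for Apoa2 and 0.36 to 0.60 for Mc2r. Counts moved more. For this comparison, 8 genes of the whole table were called, 21 with no filter, 0 with all 10 libraries in one fit and 3 to 78 with 1 library left out, the highest without Foxd1GC control replicate 2 and the lowest without Ntn1SPKO replicate 2. The 5 markers with an unadjusted p under 0.05 became 0 to 5 with 1 library left out. For Ntn1SPKO against wild-type, 7 genes became 2 with a pseudocount of 1, 18 with no filter, 12 with no trend, 0 in one fit and 1 to 20 with 1 library left out, and 1 marker became 1 to 3. For Foxd1GC control against wild-type, 1 gene became 2 with a pseudocount of 1 or 0.01, 9 with no filter, 4 with no trend, 0 in one fit and 3 to 20 with 1 library left out, and 0 markers became 0 to 3. The replicate block, which the check of pairing did not call for, gave 4 genes instead of 8 in the first comparison and 2 markers instead of 0 in the last. Of the 10 genes most like each organ's markers, 3 were shared after group means were subtracted. The cause of these changes was not tested. Depth limits the adrenal genes other than Mc2r, and Ttr, which rest on few reads, and 3 or 4 libraries per group limit every comparison.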

Other observations

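Genes of other organs near the kidney were mostly low on average. Of 13 gonad genes, only Sox9, which the kidney expresses as well, reached the mean of 0.5 FPKM. The list summed to 14.0 to 21.1 FPKM over the 10 libraries, most of it from Sox9. By mean log2 level, Foxd1GC control replicate 3 was the highest library for this list (0.33 above its mean). Lhx9 was at 0.698 FPKM there and at no more than 0.148 FPKM in the others. Insl3 was at 0.507 FPKM there and at 0 in the other 9. Both were named after their values were seen, and the part of gonad tissue was not tested. The germ cell gene Ddx4 had a mean of 0.247 FPKM and the gonadal regulator Gata4 of 0.183 FPKM. The 10 gut and pancreas genes summed to at most 2.14 FPKM.

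Of 10 transcription factors of hepatocytes, 5 were tested between Ntn1SPKO and Foxd1GC control kidneys. Of these, 4 were lower and 1 higher (median log2 difference −0.43), and none had an unadjusted p under 0.05.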
